A study of Mus musculus with 4 samples.

Results

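Polycomb repressive complex 2 (PRC2) is the enzyme that methylates lysine 27 of histone H3, the mark of genes held silent through development. This account covers 10 genes named for their place in that complex (Ezh1, Ezh2, Eed, Suz12, Jarid2, Aebp2, Mtf2, Phf19, Rbbp4 and Rbbp7), out of 55413 annotated genes of which 21938 are protein-coding. They were chosen by name. For each of them, promoter peaks were the ATAC-seq peaks with a summit within 2 kb of an annotated transcription start site (TSS), and all peaks in the gene body and 20 kb on either side were listed as well. In ATAC-seq, Tn5 transposase inserts sequencing adapters wherever chromatin is accessible, so that a peak marks open chromatin. It measures the DNA around these genes, not their RNA or protein and not the histone mark.

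In PRC2, Ezh1 or Ezh2 is the methyltransferase, and it works only when bound to Eed, which reads the methyl mark, and to Suz12, the scaffold. Rbbp4 and Rbbp7 are closely related histone-binding WD40 proteins that PRC2 shares with other chromatin complexes. The accessory subunits define variant forms of the complex, with Mtf2 and Phf19 as Polycomb-like proteins in one form and Jarid2 and Aebp2 in the other. In the developing brain, Ezh2 is known from dividing progenitors and Ezh1 from cells that have left the cell cycle. PRC1 and PRC2 read each other's marks, and the design allows the question of whether chromatin at the PRC2 genes themselves differs once KDM2B can no longer bind DNA.

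The 4 libraries, called Ctrl-1, Ctrl-2, cKO-1 and cKO-2 here, came from hippocampi of mice at postnatal day 0 (P0). The cKO group (n = 2) carried the Kdm2bEmx1-delta-CxxC genotype, in which Emx1-Cre removes the exon for the CxxC zinc finger of KDM2B, the DNA-binding part of a protein that brings PRC1 to CpG islands. The Ctrl group (n = 2) was Kdm2b fl/+ or Kdm2b fl/fl, and which library had which genotype was not given. Emx1-Cre acts in the dorsal telencephalon, so interneurons, microglia and vessel cells of a dissected hippocampus, which arise elsewhere, would keep the exon. The source and cell line fields name neural progenitor cells, whereas titles and protocol name hippocampus, and the latter is followed here. Whether replicates were separate animals or pools was not stated, so the spread between libraries may be partly technical. In bulk nuclei, a change in the share of a cell type and a change in accessibility per cell cannot be told apart.

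The libraries were unequal, and Ctrl-2 stood apart. It held 7037 peaks, against 21404 in cKO-1, 44535 in cKO-2 and 46389 in Ctrl-1, although its estimated depth was the highest (29.6 M fragments (M, mega), against 14.6 to 19.4 M). A promoter peak was present for 8.27% of protein-coding genes in Ctrl-2, against 40.3% to 58.0% in the others. The differences of single subunits between groups are therefore given with and without it. Peak names inside the 2 Ctrl lists also carry different codes, whose meaning is not given in the labels, so it was not tested whether the Ctrl libraries are alike in genotype or origin, and this bears on every Ctrl mean. The targeted exon 13 of Kdm2b (chr5:122888530-122888754) overlapped 0 peaks in each list, so it gave no check of the labels. Of 12 dorsal pallium and hippocampus genes, 11 had a promoter peak in Ctrl-1, 12 in cKO-2, 7 in cKO-1 and 0 in Ctrl-2. None of 5 microglia genes and none of 4 genes of other tissues had one in any list. Of 7 interneuron genes, 5 had one in Ctrl-1, 0 in Ctrl-2, 1 in cKO-1 and 2 in cKO-2. For vessels, 2 of 5 blood vessel genes (Flt1 and Kdr) had one in Ctrl-1 and in cKO-1 and 0 in the other lists. Of 4 oligodendrocyte lineage genes, 2 had one in Ctrl-1, 1 in cKO-2 and 0 elsewhere, and of 4 choroid plexus genes 1 had one in each list but Ctrl-2. The part of these cells in the results was not tested.

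The promoters of the subunits were first compared as sequence. Windows of 300 bp around the RefSeq TSS (GRCm38.p6, 250 bp before and 50 bp after) were found for all 10 genes. The first window of 9 genes was rich in CpG, with a GC content of 54.7% (Eed) to 75.7% (Rbbp7) and an observed over expected CpG ratio of 0.758 (Eed) to 1.12 (Rbbp4). Over all 32851 windows the medians were 52.7% and 0.384. Aebp2 was the exception, at 48.0% and 0.232, and its peak did not lie at that window but 816 bp downstream of the gene's 5′ end. The second Aebp2 window, at another TSS, had 65.7% GC and a ratio of 0.774.

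Promoter windows are shown for the genes with a promoter peak in the most libraries and in the fewest or none, each with its first 30 transcribed bases, read along the gene. Ezh2 is at neither end, since Suz12, Jarid2, Aebp2, Mtf2 and Rbbp7 had a peak in as many libraries. Its window was added outside that rule. Rbbp4 and Eed had a promoter peak in all 4 libraries, Ezh2 in 3, Ezh1 in 2 and Phf19 in none. Capitals mark matches, on either strand, to the SP/KLF (GGGCGG), NF-Y (CCAAT), E2F (TTTNGCGC) and YY1 (AANATGGCG) motifs. The windows lie at chr4:129335341-129335620 (Rbbp4), chr7:89980947-89981226 (Eed), chr6:47595001-47595280 (Ezh2), chr11:101226434-101226713 (Ezh1) and chr2:34913947-34914226 (Phf19), all on the minus strand.
Rbbp4: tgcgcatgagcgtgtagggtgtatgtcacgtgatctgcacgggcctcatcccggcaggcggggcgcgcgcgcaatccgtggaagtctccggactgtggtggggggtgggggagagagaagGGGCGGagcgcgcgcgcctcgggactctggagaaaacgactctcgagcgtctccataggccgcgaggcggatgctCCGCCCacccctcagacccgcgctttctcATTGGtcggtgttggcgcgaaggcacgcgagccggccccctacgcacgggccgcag
Eed: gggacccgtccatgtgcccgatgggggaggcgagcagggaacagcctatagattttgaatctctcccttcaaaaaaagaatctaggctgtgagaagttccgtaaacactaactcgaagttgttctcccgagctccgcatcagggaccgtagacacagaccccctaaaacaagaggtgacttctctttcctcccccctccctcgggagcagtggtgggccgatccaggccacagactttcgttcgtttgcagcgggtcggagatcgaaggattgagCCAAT
Ezh2: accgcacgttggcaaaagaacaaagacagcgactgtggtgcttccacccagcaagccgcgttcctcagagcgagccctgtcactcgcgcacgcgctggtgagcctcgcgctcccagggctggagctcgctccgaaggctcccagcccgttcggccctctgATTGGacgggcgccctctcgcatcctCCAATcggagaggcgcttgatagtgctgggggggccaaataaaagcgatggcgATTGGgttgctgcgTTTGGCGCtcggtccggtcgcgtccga
Ezh1: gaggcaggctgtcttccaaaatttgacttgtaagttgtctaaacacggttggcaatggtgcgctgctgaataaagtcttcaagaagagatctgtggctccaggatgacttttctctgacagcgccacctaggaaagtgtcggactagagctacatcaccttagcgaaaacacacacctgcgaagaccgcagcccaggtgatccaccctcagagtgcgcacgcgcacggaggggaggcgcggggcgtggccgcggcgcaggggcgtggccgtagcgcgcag
Phf19: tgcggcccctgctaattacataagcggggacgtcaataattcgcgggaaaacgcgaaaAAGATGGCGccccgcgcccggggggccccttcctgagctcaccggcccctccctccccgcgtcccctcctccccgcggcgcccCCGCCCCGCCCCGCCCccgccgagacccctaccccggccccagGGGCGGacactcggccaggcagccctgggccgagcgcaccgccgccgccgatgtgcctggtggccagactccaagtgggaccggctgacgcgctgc

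Ezh2 was the one subunit with an E2F match, 3 bases after its TSS, and its window also held 3 NF-Y matches at 90, 64 and 11 bases before the TSS. The E2F letters occurred in 1.38% of all windows. The Ezh1 window, of the alternative methyltransferase, held none of the 7 motifs searched, which also included ETS (CCGGAAG), NRF1 (CGCATGCG) and CRE (TGACGTCA). Phf19 held the only YY1 match among the subunits, 192 bases before its TSS, and 4 SP/KLF matches, of which 3 overlap in a row. The YY1 letters occurred in 2.38% of all windows. Over all windows of each gene, SP/KLF matches were present for 7 of 10 subunits and NF-Y matches for 8 of 10, against 35.7% and 37.4% of single windows. No subunit had an ETS, NRF1 or CRE match, which occurred in 8.86%, 1.87% and 1.79% of windows. A match is a run of letters only, and 3 of the subunits (Jarid2, Aebp2 and Mtf2) have several windows, not all of them at a peak.

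Accessibility at each promoter was expressed in 2 ways. The promoter percentile ranks the strongest promoter peak of a gene, by −log10 p, against those of all other protein-coding genes in one library, as the percentage that rank below it. A gene with no promoter peak has a percentile of 0. The scaled depth is the number of fragments at the summit divided by the mean fragment depth of the genome in that library. A promoter peak was found for 9 of the 10 genes in Ctrl-1, 2 in Ctrl-2, 8 in cKO-1 and 9 in cKO-2. Among genes with a peak, the subunits had a median percentile of 86.9 in Ctrl-1, 88.6 in cKO-1 and 90 in cKO-2. The medians over all protein-coding genes with a peak were 71.0, 79.9 and 72.1. In Ctrl-2 the order was the other way, with 94.8 for the 2 subunits with a peak and 95.6 over all genes with one. In Ctrl-1, cKO-1 and cKO-2 alike, 7 of the 10 subunit promoters lay above a percentile of 80. The share of all protein-coding genes above that level in all 3 was not computed. Over all subunits and libraries with a promoter peak, summits lay 3 to 208 bp from a TSS.

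**Figure D1:**
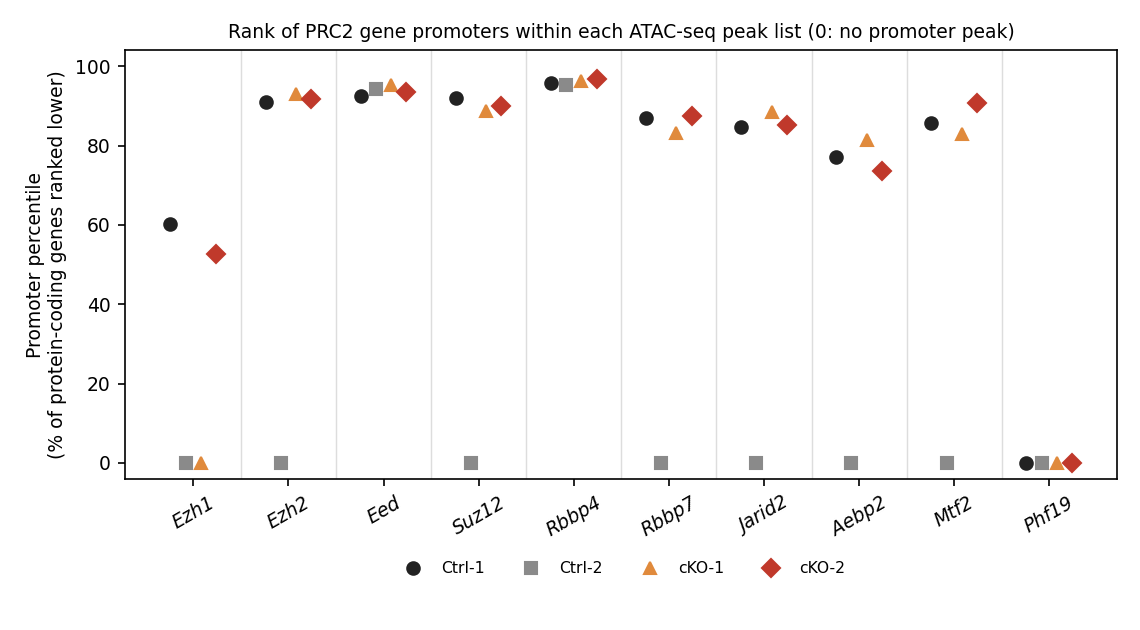
Promoter percentile (vertical axis, % of protein-coding genes ranked lower in the same library) of the 10 PRC2 genes in each library, 1 point per library. Rbbp4 and Eed lie above 92 in all 4 libraries, the Ctrl-2 points of the other genes lie at 0, and Phf19 lies at 0 in every library.

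By −log10 p and with the TSSs of the basic annotation, the highest ranks of the set belonged to core genes. Rbbp4 ranked first, with a percentile of 95.8 in Ctrl-1, 95.4 in Ctrl-2, 96.2 in cKO-1 and 96.8 in cKO-2. Its summits rested on 119, 21, 57 and 120 fragments in the same order. Both cKO values lay above both Ctrl values, by 0.923 percentile points on average (cKO 96.5 ± 0.416, Ctrl 95.6 ± 0.290, SD, n = 2 each, exact two-sided permutation p = 0.333, adjusted p = 1). This is the smallest p that 2 libraries against 2 allow. The peak is shared with the start of Zbtb8os, which is transcribed the other way, so the data do not assign it to one gene. Without Ctrl-2 the difference was 0.718. Both the separation and the first place depend on the measure, and the first place also on the annotation. With the starts of the comprehensive annotation, Phf19 ranked above Rbbp4 in Ctrl-1 (98.2 against 95.7) and Ctrl-2 (97.2 against 95.1). It ranked below Rbbp4 in cKO-1 (95.9 against 96.1) and cKO-2 (94.2 against 96.7). Ranked by fold enrichment, Rbbp4 had 87.6 and 94.8 in Ctrl and 93.0 and 90.8 in cKO, so the groups overlapped (exact permutation p = 1). By that measure, Suz12 was first in Ctrl-1 (96.6, against 87.6 for Rbbp4), Eed in Ctrl-2 (94.9) and cKO-1 (95.2), and the accessory gene Mtf2 in cKO-2 (96.5, against 90.8 for Rbbp4).

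Eed, the subunit that reads the methyl mark, was also open in all libraries. Its percentiles were 92.5 and 94.2 in Ctrl and 95.4 and 93.5 in cKO, and the groups overlapped. The cKO mean of 94.5 ± 1.37 and the Ctrl mean of 93.3 ± 1.22 differed by 1.12 points (SD, n = 2 each, exact permutation p = 0.667), and by 1.98 without Ctrl-2. The summits held 102, 17, 49 and 98 fragments in Ctrl-1, Ctrl-2, cKO-1 and cKO-2. The overlap rests on a weak Ctrl-2 peak. With peaks of a −log10 q-value or a fold of at least 5, that peak was lost, both cKO values lay above both Ctrl values and the difference was 48.2 (exact permutation p = 0.333). The TSS of E230029C05Rik lies within 2 kb of the same peak.

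The high percentiles of Rbbp4 and Eed in Ctrl-2 follow from having a peak at all, since any gene with a promoter peak in that list has a percentile of at least 91.7. Both lay below the median of 95.6 for such genes, and the peaks were shallow. The scaled depth of Rbbp4 was 73.4 (95% Poisson interval 60.8 to 87.8) in Ctrl-1 and 6.06 (3.75 to 9.27) in Ctrl-2, a ratio of 12.1. For Eed it was 62.9 (51.3 to 76.3) and 4.91 (2.86 to 7.86), a ratio of 12.8. The median ratio over 1780 protein-coding genes with a peak in both Ctrl libraries was 10.3, so the gap was of similar size across promoters. The shallowest peak in the Ctrl-2 list had a scaled depth of 3.46, not far under those of Eed and Rbbp4. Intervals cover counting error only.

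Ezh2, the main methyltransferase of dividing cells, had a promoter peak in Ctrl-1 (percentile 91.1, 88 fragments), cKO-1 (93.1, 44 fragments) and cKO-2 (91.8, 84 fragments) and none in Ctrl-2. Its cKO values lay above both Ctrl values. The mean difference of 46.9 points (cKO 92.5 ± 0.896, Ctrl 45.6 ± 64.4, SD, n = 2 each, exact permutation p = 0.333) fell to 1.33 without Ctrl-2. Ezh1 behaved differently from Ezh2. It had a percentile of 60.3 on 22 fragments in Ctrl-1 and 52.6 on 15 fragments in cKO-2, and no promoter peak in the other libraries. The Ezh2 summit was 4.00 times as deep as that of Ezh1 in Ctrl-1 and 5.60 times as deep in cKO-2, and their Poisson intervals did not overlap. The Ezh1 groups overlapped (difference −3.88, cKO 26.3 ± 37.2, Ctrl 30.2 ± 42.7, SD, n = 2 each, exact permutation p = 1), and the difference was −34.0 without Ctrl-2.

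Suz12, the scaffold, was the one gene with a peak in 3 libraries that ranked lower in both cKO libraries than in Ctrl-1. Its percentiles were 92.0 in Ctrl-1, 0 in Ctrl-2, 88.7 in cKO-1 and 90 in cKO-2, on 80, 29 and 69 fragments where there was a peak. The groups overlapped over 4 libraries (difference 43.3, cKO 89.3 ± 0.909, Ctrl 46.0 ± 65.0, SD, n = 2 each, exact permutation p = 1) and the difference was −2.65 without Ctrl-2. Rbbp7, the X-linked relative of Rbbp4, reached 86.9, 0, 83.1 and 87.5 in Ctrl-1, Ctrl-2, cKO-1 and cKO-2. Its groups overlapped (difference 41.9, cKO 85.3 ± 3.14, Ctrl 43.4 ± 61.4, exact permutation p = 0.667), and without Ctrl-2 the difference was −1.54. Rbbp7 was less deep than Rbbp4 in each of the 3 libraries with a peak for both, with 70, 25 and 67 fragments.

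By −log10 p with the TSSs of the basic annotation, the accessory genes ranked below Rbbp4, Eed and Ezh2 in every library where they had a peak. By fold enrichment this did not hold for Mtf2, which at 89.2 in Ctrl-1 and 96.5 in cKO-2 ranked above all of them (86.5 and 88.6 for Ezh2, 81.4 and 86.4 for Eed). With the starts of the comprehensive annotation, the order did not hold for Phf19 by −log10 p. At 98.2, 97.2, 95.9 and 94.2, Phf19 ranked above Eed (92.3, 93.8, 95.3 and 93.3) and Ezh2 in Ctrl-1, Ctrl-2, cKO-1 and cKO-2. Jarid2, which helps to bring PRC2 to its targets, had percentiles of 84.8, 0, 88.5 and 85.1 in Ctrl-1, Ctrl-2, cKO-1 and cKO-2. Both its cKO values were above both Ctrl values (difference 44.4, cKO 86.8 ± 2.40, Ctrl 42.4 ± 60.0, exact permutation p = 0.333), and the difference was 1.96 without Ctrl-2. In cKO-1 the Jarid2 promoter was split into 2 peaks of 35 and 25 fragments, and the stronger, which gave the rank, lay 534 bp from the Ctrl-1 summit. Mtf2, a Polycomb-like protein that binds CpG-rich DNA, had 85.8, 0, 82.9 and 90.7, with overlapping groups (difference 43.9, cKO 86.8 ± 5.46, Ctrl 42.9 ± 60.7, exact permutation p = 0.667) that differed by 1.01 without Ctrl-2. Aebp2, a zinc finger subunit, ranked lowest of the genes with a peak in 3 libraries, at 77.1, 0, 81.3 and 73.5, with overlapping groups (difference 38.9, cKO 77.4 ± 5.50, Ctrl 38.5 ± 54.5, exact permutation p = 0.667) that differed by 0.353 without Ctrl-2. With lists reduced to equal size it lost its cKO-2 peak, and the difference was 2.12. Its peak also lies within 2 kb of a TSS of Gm44013. Phf19, the second Polycomb-like subunit here, had no promoter peak in any library despite a GC content of 74.3% in its window.

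Across the set, 3 of 10 subunits (Ezh2, Jarid2 and Rbbp4) had a higher percentile in both cKO libraries than in both Ctrl libraries, and 0 had a lower one. Over 13196 protein-coding genes (those with a peak at a promoter in 1 library or more), 20.5% were higher and 2.80% lower by the same rule. Ranking by fold enrichment also gave 3 higher, but with Rbbp7 (84.7 and 0 in Ctrl, 85.4 and 85.8 in cKO) in place of Rbbp4, beside 21% of genes higher and 1.66% lower. With the middle rank of the genes without a peak in place of 0, the same counts stood beside 20.4% higher and 10.4% lower. The adjusted p was 1 for every gene, since the smallest p is 0.333 and 3073 of the 13196 genes reached it. Counted against Ctrl-1 alone, 8 subunits had a peak in all 3 libraries. Of these, 4 (Ezh2, Eed, Jarid2 and Rbbp4) ranked higher in both cKO libraries, 1 (Suz12) lower, and 3 (Aebp2, Mtf2 and Rbbp7) were on either side. In both counts, the cKO-1 rank of Jarid2 rests on its peak 534 bp from the Ctrl-1 summit. The counts were not repeated with the nearer peak of 25 fragments. The background over 8734 genes was 35.6% higher and 28.1% lower. With 3 and then 4 genes counted, these shares do not set the subunits apart from other promoters.

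Among the genes, depth gave an order that was alike in 3 libraries. Rbbp4, Eed and Ezh2 were the 3 deepest promoters, in that order, in Ctrl-1, cKO-1 and cKO-2. Neighbours in the order had overlapping Poisson intervals, with 1 exception. Ezh1, at a scaled depth of 13.6 (8.50 to 20.5) in Ctrl-1 and 8.30 (4.65 to 13.7) in cKO-2, lay below Aebp2, the next gene, at 32.7 (24.5 to 42.7) and 24.4 (17.7 to 32.7). The deepest subunit promoter exceeded the shallowest by 5.41 times in Ctrl-1, 8 times in cKO-2 and 2.28 times in cKO-1, where Ezh1 had no peak. The median width of subunit peaks was 826 bp in Ctrl-1, 742 bp in cKO-1 and 912 bp in cKO-2, against 676, 476 and 636 bp over protein-coding promoters. Narrower than these medians were Ezh1 (564 bp) and Suz12 (635 bp) in Ctrl-1, Jarid2 (297 bp) in cKO-1, and Ezh1 (512 bp) and Suz12 (516 bp) in cKO-2. The other subunit peaks in these libraries were wider. Widths were not compared at equal peak strength.

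**Figure D2:**
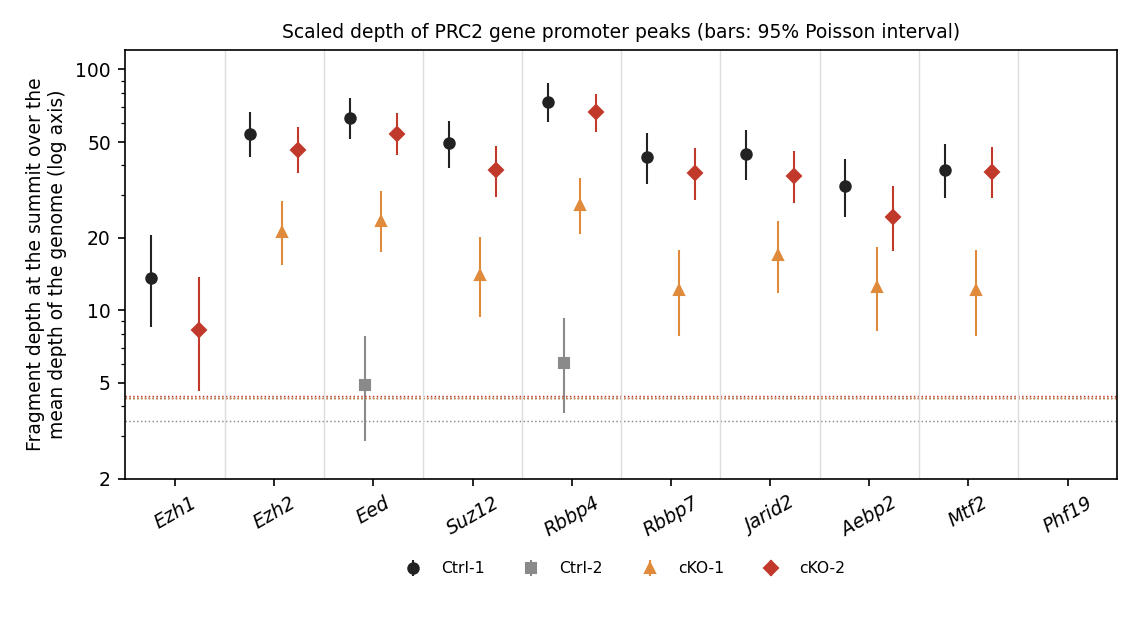
Scaled depth of the strongest promoter peak of each PRC2 gene (vertical log axis, summit fragments over the mean depth of the genome), with 95% Poisson intervals as bars, and dotted lines at the shallowest peak of each list. All 8 genes with a peak in cKO-1 lie below their Ctrl-1 and cKO-2 values, and Phf19 has no point.

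By depth, cKO-1 lay apart from both Ctrl-1 and cKO-2. For all 8 genes measured in Ctrl-1 and both cKO libraries, the interval in cKO-1 lay wholly below that in Ctrl-1. In cKO-2 all 8 intervals overlapped those of Ctrl-1, and 7 of the 8 lay wholly above those of cKO-1, with Aebp2 as the exception. The share of all genes whose intervals separate in this way was not computed, so these counts do not set the subunits apart. The scaled depth of Ezh2 was 54.2 (43.5 to 66.8) in Ctrl-1, 21.2 (15.4 to 28.5) in cKO-1 and 46.5 (37.1 to 57.6) in cKO-2. For Suz12 it was 49.3, 14.0 and 38.2 in the same order. Mtf2 had 38.2, 12.1 and 37.6. Of the 8 genes Mtf2 came closest to its Ctrl-1 value in cKO-2. The values of Rbbp7 were 43.2, 12.1 and 37.1. Those of Jarid2 were 44.4, 16.9 and 36.0 at its strongest peaks, and in cKO-1 the peak 44 bp from the Ctrl-1 summit gave 12.1 (7.80 to 17.8).

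The shift was shared with other promoters. The median log2 ratio to Ctrl-1 over the 8 subunits was −1.41 in cKO-1 and −0.22 in cKO-2, beside −1.44 and −0.25 over 8734 genes. The average of both was −0.85 for the subunits and −0.85 for all genes. Relative to the all-gene median, Rbbp7 was lowest in cKO-1, at −0.40 on the log2 scale, followed by Suz12 at −0.38. In cKO-2 Rbbp7 stood at 0.03 and Suz12 at −0.12, so the position of Rbbp7 was not repeated. Mtf2 stood at −0.23 in cKO-1 and 0.23 in cKO-2. Counting alone gave a standard error of 0.19 to 0.35 for a single ratio. All 8 ratios in cKO-2 lay between the 10th and 90th percentiles of all genes (−0.61 and 0.11), and in cKO-1 all 8 lay between −1.86 and −0.92. With the promoter peak nearest to the Ctrl-1 summit in place of the strongest, Jarid2 was the lowest in cKO-1, at −1.88 (−0.44 relative to all genes), just under the 10th percentile of −1.87 for that choice. The subunit median was then −1.54 in cKO-1, beside −1.44 over all genes, and stayed at −0.22 in cKO-2. No test was made against the single Ctrl library.

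**Figure D3:**
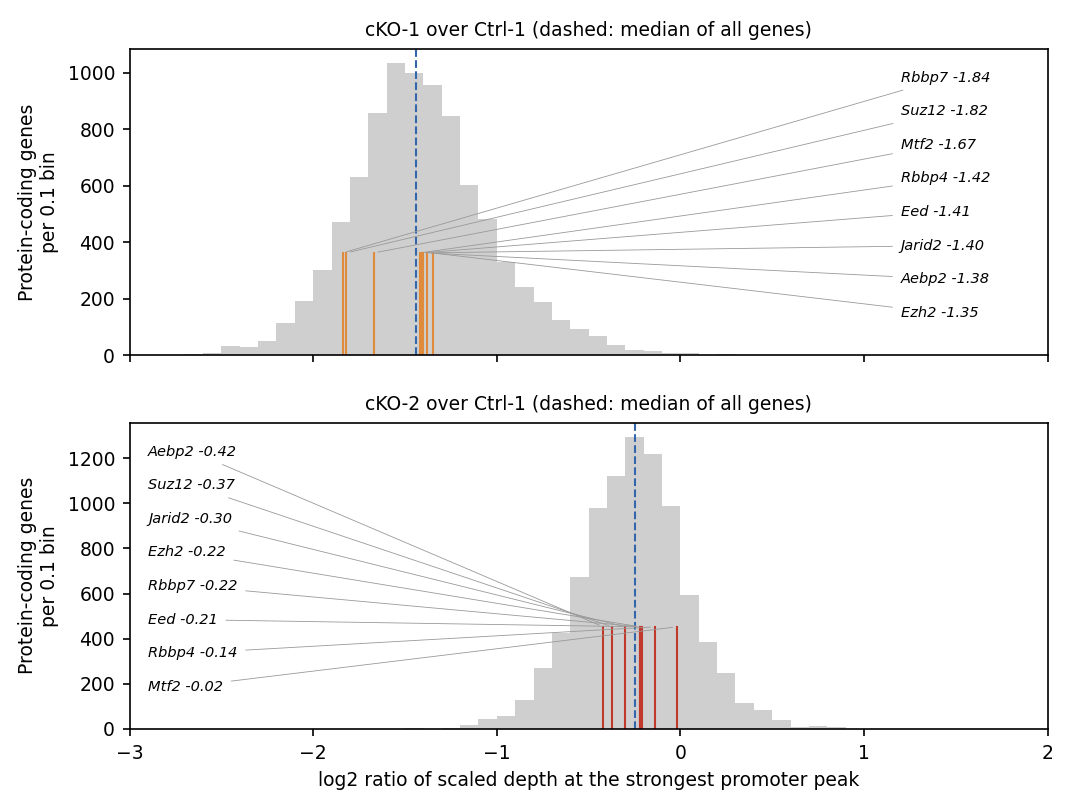
Number of protein-coding genes (vertical axis, 8734 in all) by the log2 ratio of scaled promoter depth to Ctrl-1 (horizontal axis, bins of 0.1), with PRC2 genes as coloured lines and the all-gene median dashed. The subunits sit inside the bulk of both distributions, which are centred at −1.44 for cKO-1 and −0.25 for cKO-2.

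Beyond promoters, the 10 loci held 34 separate peak regions. These were 9 promoters of the subunits, 4 promoters of other genes, 10 regions in the body of a subunit gene, 3 in the body of another gene and 8 intergenic regions. Of the 34, 6 were found in all 4 lists, 13 in 3, 8 in 2 and 7 in 1. The number of regions seen in both cKO lists but in no Ctrl list was 0, and so was the reverse. Over the 58652 peak regions of the genome, merged the same way, these shares were 0.692% and 0.305%. Without Ctrl-2 there were 33 regions, 19 of them in all 3 lists, and still 0 in both cKO lists alone. No share over the genome is given for this setting, so that 0 cannot be set against a background. Ctrl-1 and cKO-2 alone shared 7 regions, also with no share over the genome given. The loci held 30 peaks in Ctrl-1, 8 in Ctrl-2, 22 in cKO-1 and 29 in cKO-2, a difference of group means of 6.50 that became −4.50 without Ctrl-2. Per Mb this was 32.4, 8.64, 23.7 and 31.3 peaks, against 17, 2.58, 7.85 and 16.3 over the genome. The genome includes stretches far from any gene. No density over the loci of other genes was computed, so the gap cannot be read as particular to PRC2 genes.

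**Figure D4:**
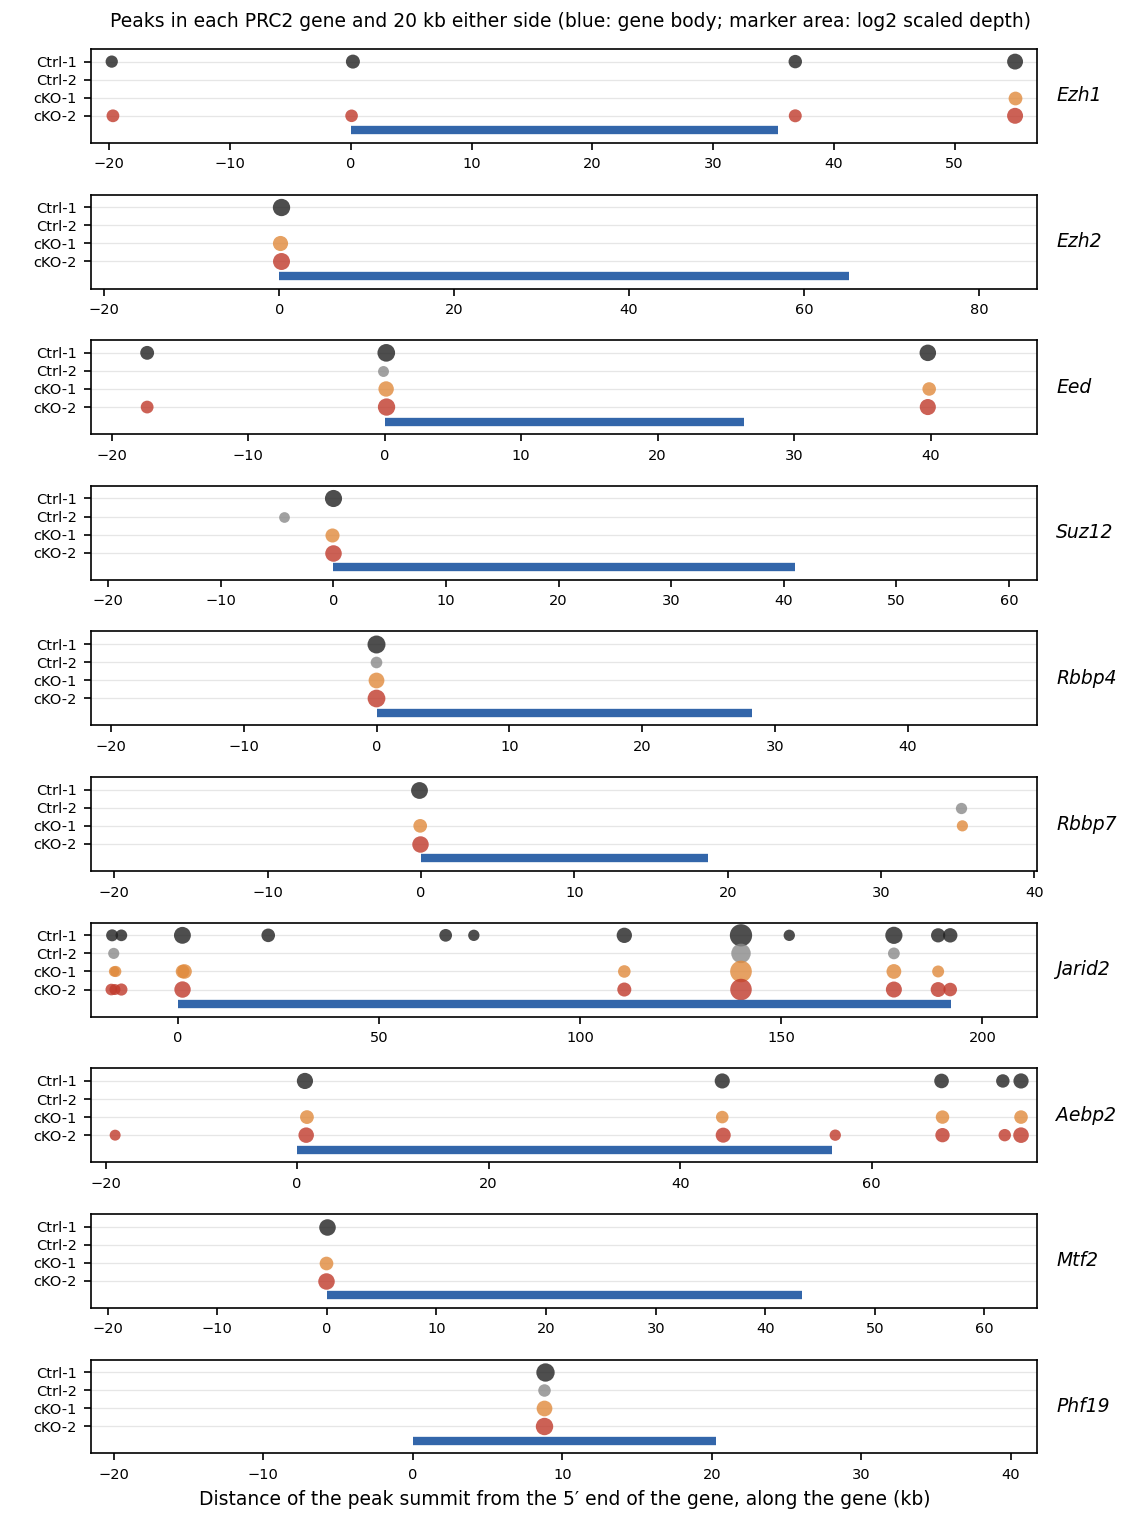
Position of each peak summit (horizontal axis, kb from the 5′ end of the gene, read along it) for the 10 PRC2 loci, 1 row per library, with the gene body in blue and marker area rising with log2 scaled depth. Ezh2, Mtf2 and Rbbp4 show a single region at the promoter, Jarid2 shows the most regions, and the single Phf19 region lies inside the gene.

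The loci differed in how much of their accessible chromatin lay away from the promoter. Ezh2 (65203 bp, chr6:47530139-47595341), Mtf2 and Rbbp4 had a single region, the promoter itself. Jarid2, the longest gene at 192170 bp, had 12 peaks in Ctrl-1, 3 in Ctrl-2, 8 in cKO-1 and 9 in cKO-2. Aebp2 had 5, 0, 4 and 7, and 4 of its 7 regions lay downstream of the gene. Around Ezh1 there were 4, 0, 1 and 4 peaks, and the deepest of them was the promoter of its neighbour Plekhh3, at 47, 26 and 54 fragments in Ctrl-1, cKO-1 and cKO-2. The single Ctrl-2 peak near Suz12 lay at −4413 bp from the 5′ end of the gene on 16 fragments, where no other library had a peak.

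Phf19 had its single region inside the gene. It spanned 676 bp in intron 6 of the protein-coding transcript (chr2:34904835-34905510), 8824 bp from the 5′ end of the gene, and was present in all 4 lists. Its summit held 143 and 28 fragments in Ctrl and 56 and 102 in cKO, which made it deeper than every subunit promoter in Ctrl-1 and Ctrl-2 (119 and 21 fragments for Rbbp4). In cKO the Rbbp4 promoter held 57 and 120 fragments. The log2 ratio of its scaled depth to Ctrl-1 was −1.71 in cKO-1 and −0.64 in cKO-2, or −0.27 and −0.39 relative to the median promoter, with counting errors of 0.23 and 0.19. The region has no second copy in the genome by the criteria used and 3.40% of it is soft-masked. A non-coding Phf19 transcript outside the basic annotation starts 295 bp from the summit. Another non-basic start lies 1050 bp from it. With the starts of the comprehensive annotation counted for all genes, the ranks gave Phf19 percentiles of 98.2 and 97.2 in Ctrl and 95.9 and 94.2 in cKO, a difference of −2.63 with both cKO values lower (exact permutation p = 0.333, the smallest possible), and −3.15 without Ctrl-2.

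Jarid2 held the deepest region of all loci, in intron 3 (chr13:44869569-44870017, 449 bp). It rested on 1214 and 545 fragments in Ctrl and 1072 and 863 in cKO, and stood 15th, 28th, 12th and 18th in the 4 lists. It should not be read as a Jarid2 element alone. The reference genome holds 14 other copies of at least 300 bp and 90% identity, on 12 chromosomes, with 90.9% to 98.6% identity. Of these copies 7 had a peak in all 4 lists, 6 had none, and 1 had a peak in both cKO lists alone. Copies were sought in the reference genome only. The share of its fragments that belongs to these copies, to shorter or less similar ones, or to any that the reference lacks was not tested. A second intragenic region, in intron 9 (chr13:44907642-44908198), was also found in all 4 lists, on 83 and 22 fragments in Ctrl and 38 and 55 in cKO. The remaining region in all 4 lists lies at −15898 bp from the 5′ end of Jarid2, and 100% of its bases are soft-masked repeat.

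The central 200 bases of the 2 gene-body regions in Phf19 intron 6 and Jarid2 intron 3 are shown. These regions carry the deepest signals outside the promoters. The Phf19 stretch holds the summit listed for its region (chr2:34905202). The Jarid2 stretch starts past the summit listed for its region (chr13:44869636), so it does not show the bases at that summit. They are written on the plus strand with each CG in capitals, at chr2:34905073-34905272 for Phf19 and chr13:44869694-44869893 for Jarid2.
Phf19 intron 6: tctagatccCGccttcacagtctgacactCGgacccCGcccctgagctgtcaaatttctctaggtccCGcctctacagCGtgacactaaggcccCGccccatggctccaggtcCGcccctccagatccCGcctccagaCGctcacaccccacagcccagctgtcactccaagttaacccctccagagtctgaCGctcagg
Jarid2 intron 3: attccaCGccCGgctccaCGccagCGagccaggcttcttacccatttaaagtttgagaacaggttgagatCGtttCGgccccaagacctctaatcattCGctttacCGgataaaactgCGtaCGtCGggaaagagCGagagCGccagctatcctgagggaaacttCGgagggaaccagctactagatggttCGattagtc

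The Phf19 stretch has 62.5% GC with 10 CG dinucleotides (observed over expected 0.605), and the Jarid2 stretch 52.5% with 15 (1.09). The Phf19 promoter window, without a peak, had a ratio of 0.952, higher than the intron 6 region with one (0.556 over its whole length).

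Related gene lists place the subunits among other Polycomb genes. Of 7 further PRC2-linked genes, 5 had a promoter peak in Ctrl-1, 1 in Ctrl-2, 4 in cKO-1 and 5 in cKO-2. Lcorl, whose locus also encodes a PRC2 cofactor, was open in all 4 libraries (98.6, 96.6, 99.5 and 99.1). Kdm6b, a demethylase of the PRC2 mark, and AU022751 had no promoter peak in any. AU022751 is the annotation's name for Ezhip, an inhibitor of the complex. For 10 genes of PRC1.1, the complex of KDM2B, the counts were 10, 1, 9 and 10, and Pcgf1 was the one with a peak in all 4 (98.1, 96.5, 94.1 and 95.1). For 10 genes of canonical PRC1 they were 9, 0, 6 and 8. The PRC2 subunits, at 9, 2, 8 and 9 of 10, had a median percentile of 86.3 in Ctrl-1, against 68.4 for PRC1.1 and 63.7 for canonical PRC1. In cKO-1 these medians were 85.8, 76.9 and 66.4, and in cKO-2 they were 88.8, 69.4 and 63.0. A list of 8 genes of dividing cells ranked about as high as the subunits, with promoter peaks for 8, 0, 7 and 8 of them and medians of 87.2 in Ctrl-1, 83.6 in cKO-1 and 81.5 in cKO-2, beside 86.3, 85.8 and 88.8 for the subunits. No test was made between lists.

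**Figure D5:**
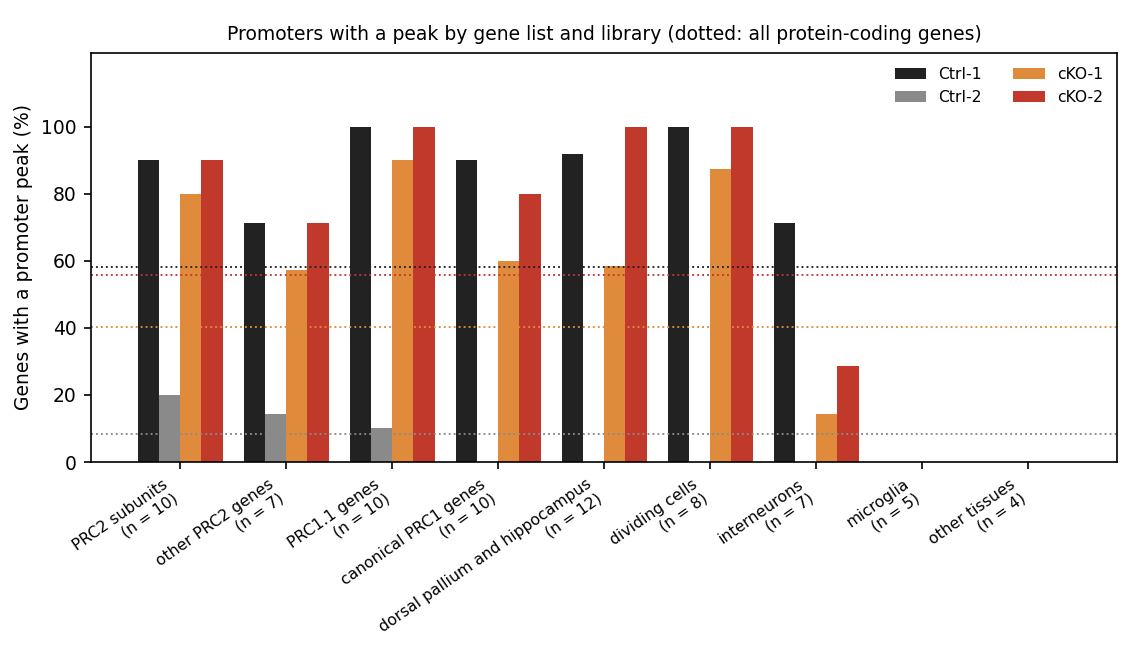
Share of genes with a promoter peak (vertical axis, %) in 9 gene lists, 1 bar per library, with dotted lines for all protein-coding genes of that library. The PRC2 subunits reach 90% in Ctrl-1 and cKO-2 and 20% in Ctrl-2, and no microglia or other-tissue promoter has a peak.

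Promoters used in most cells gave a scale for these ranks. Actb stood at 87.1, 94.0, 88.1 and 86.2 in Ctrl-1, Ctrl-2, cKO-1 and cKO-2, below Rbbp4 and Eed in each library. Polr2a had 85.7, 96.8, 93.3 and 84.8. Like most subunits, Gapdh and Eef1a1 had no promoter peak in Ctrl-2. Kdm2b itself stood at 68.5, 74.9 and 70.7 in the libraries other than Ctrl-2, below all subunits with a peak there apart from Ezh1. The protein-coding genes closest to the median profile of the subunits (86.3, 0, 85.8 and 88.8) were Akap8l, Mtfp1 and Pdk2, with summed absolute differences over the 4 libraries of 1.1, 1.38 and 1.39 percentile points.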

How the data were processed

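ATAC-seq peak lists of 4 P0 hippocampus libraries (2 cKO, 2 Ctrl) were used. Per the study's methods and the submitters' processing notes, reads were trimmed with Cutadapt and aligned to mm10 with Bowtie2, blacklisted, mitochondrial and duplicate fragments were removed (Picard), alignments were shifted for Tn5, and MACS2 2.2.7.1 called peaks in each library alone, without a control. Lists called separately have separate thresholds, and removing duplicates can lower deep summits.

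Each deposited list holds the authors' score (a display value, not used), fold enrichment at the summit, −log10 p-value and −log10 q-value (lowest 1.31). The deposited fold is a ratio of summit depth to local background with 1 added to both. Whole fragment depths were recovered from fold and p within 0.01 on the −log10 p scale, and all 3000 test peaks per library, made with known depths, were recovered (100%). Genome mean depth was the lowest background in a list. Fragment totals are estimates.

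Genes and TSSs came from the basic set of GENCODE M21 on GRCm38.p6 (77221 TSSs), and promoter windows from RefSeq. Copies were sought with blastn 2.17.0. Percentiles were compared by an exact two-sided permutation test over 6 assignments, with Benjamini-Hochberg adjustment over 13196 genes. Python 3.11.15, numpy 2.4.6, pandas 2.3.3 and scipy 1.17.1 were used. Alternatives were equal-size lists, stricter peaks, other promoter definitions, other ranks, other flanks, a replicate block and leaving out each library. The comprehensive annotation and the promoter peak nearest to the Ctrl-1 summit were added after seeing the data.

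All subunits were named in every library. Other genes were named if they share a subunit's promoter peak, had a promoter peak in all 4 or in none of the lists within a fixed gene list, were reference promoters or the targeted gene, or were the 3 nearest in percentile. Plekhh3, Flt1 and Kdr were named after their values were seen. The members and gene lists were chosen with earlier results of these data known.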

Additional observations from a re-analysis of the deposited data

How the results depend on the processing

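Ctrl-2 decided the direction of several results. Leaving out each library in turn gave 4 to 7 subunits ranked higher in cKO (3 with all libraries) and 0 to 2 ranked lower (0 with all), but the share of all genes moved too: 59.6% beside the 7 higher without Ctrl-1, 23.8% beside 4 without Ctrl-2, 44.9% and 34.5% beside 5 without cKO-1 or cKO-2, and 36.6% beside the 2 lower without Ctrl-2. The difference in subunits with a promoter peak (3.00) ranged from −0.5 without Ctrl-2 to 6.50, and that in peaks at the loci (6.50) from −4.50, again without it, to 17.5. By gene, the range was −34.0 to 26.3 for Ezh1, −2.65 to 89.3 for Suz12 and −1.54 to 85.3 for Rbbp7. Ezh1 was 26.3 without Ctrl-1 and 22.4 without cKO-1. Ranked among genes with a peak in 3 libraries, Suz12 (−6.67) and Rbbp7 (−3.88) reversed and 1 subunit, Suz12, was lower in both cKO libraries, as were 31.5% of genes. The comprehensive annotation also gave 1 lower, Phf19, beside 2.89% of genes. The causes were not tested. Equal-size lists left 8, 2, 8 and 7 subunits with a promoter peak in Ctrl-1, Ctrl-2, cKO-1 and cKO-2, and removed Ezh1 from each list and Aebp2 from cKO-2 (difference 2.12 in place of 38.9). Middle ranks for genes without a peak gave differences of 24.0 for Ezh2 (46.9 with 0), 21.4 for Jarid2 (44.4), 16 for Aebp2 (38.9), −11.9 for Ezh1 (−3.88) and −7.46 for Phf19 (0). A minimum fold of 5 left 9, 0, 8 and 9. The loss of Ctrl-2 peaks moved the Eed difference from 1.12 to 48.2 (minimum −log10 q or fold of 5) and that of Rbbp4 from 0.923 to 48.6 (fold only).

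Replicate numbers are shared between groups, but the labels name no batch or litter, and no pairing was assumed. Deviations of same-numbered libraries correlated at 0.0530 over 13196 genes. With 2 libraries per group, the deviations within a group are equal and opposite, and those in Ctrl mostly reflect the missing peaks of Ctrl-2. This value can therefore neither show nor exclude a pairing. With the replicate block, 4 subunits were higher (32.2% of genes) and 0 lower (4.30%). With 2 libraries per group the block leaves each difference of means as it was by construction.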
